A study of Mus musculus with 11 samples.

Results

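The genes described here are 49 genes of G2 and mitosis, the stretch of the cell cycle in which a replicated cell condenses its chromosomes, builds a spindle and divides. They were chosen by name from the 14528 genes of the expression table, and a member had to be listed with a mean of at least 0.5 FPKM (fragments per kilobase of gene, scaled to library size). All 49 were listed and all 49 passed, as did 11323 genes of the table in all. The cells were B16F10, a mouse melanoma line, in 3 forms: a Cas9 control whose genotype is given as wild type, and the knockout clones ΔUNG and ΔUNG_2, which target Ung, the gene of the uracil-DNA glycosylase that removes uracil from DNA. Each line was kept for 48 h in DMSO, the solvent, or in 5 µM AZD6738, an inhibitor of the ATR checkpoint kinase (ATRi here), and bulk RNA was sequenced. Every group had 2 libraries except ΔUNG_2 under ATRi, for which 1 library was used here, so 11 libraries entered. Each knockout line is a single clone, and whether the clones still carry Cas9 is not given in the sources used here. The libraries are called biological replicates, but nothing says that they came from separate cultures, so p-values here reflect only how far these libraries lie apart, which may be technical.

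ATR senses stalled replication forks and, through the kinase CHK1, holds back CDK1, the kinase that drives cells into mitosis once cyclin B is bound to it. Genes of G2 and mitosis are transcribed late in the cycle, and their promoters are known for a cell cycle homology element bound by the MuvB protein complex and for CCAAT boxes bound by the factor NF-Y. MuvB joins the pocket proteins and E2F4 in a repressor called DREAM in resting cells, and B-MYB and FOXM1 in activators in cycling cells.

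Promoter sequences are shown first for 6 members, because the letters known for this gene class can be read in them: the DNA topoisomerase gene Top2a, the cyclin gene Ccnb2, the kinase gene Plk1 and the motor gene Kif11, which were lower under ATRi in every line, and Cdc20 and Bub3, the members that did not pass in the control. Each run covers 250 bases before to 50 bases after the start of the gene in RefSeq, build GRCm38.p6, read 5′ to 3′ on the gene's strand. Capitals mark the cell cycle homology letters TTTGAA or TTCGAA and the NF-Y box CCAAT on either strand, so TTCAAA and ATTGG are the same motifs read on the other strand. The windows lie at chr11:99024140-99024439 (minus strand) for Top2a, chr9:70421505-70421804 (minus strand) for Ccnb2, chr7:122159185-122159484 (plus strand) for Plk1, chr19:37376132-37376431 (plus strand) for Kif11, chr4:118437294-118437593 (minus strand) for Cdc20 and chr7:131560120-131560419 (plus strand) for Bub3.
Top2a: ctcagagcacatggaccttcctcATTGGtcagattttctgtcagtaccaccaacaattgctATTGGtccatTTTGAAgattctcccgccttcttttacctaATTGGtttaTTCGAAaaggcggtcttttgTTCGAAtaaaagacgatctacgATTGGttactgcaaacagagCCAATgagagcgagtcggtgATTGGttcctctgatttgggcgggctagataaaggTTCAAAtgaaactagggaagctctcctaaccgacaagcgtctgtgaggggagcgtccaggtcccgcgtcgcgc
Ccnb2: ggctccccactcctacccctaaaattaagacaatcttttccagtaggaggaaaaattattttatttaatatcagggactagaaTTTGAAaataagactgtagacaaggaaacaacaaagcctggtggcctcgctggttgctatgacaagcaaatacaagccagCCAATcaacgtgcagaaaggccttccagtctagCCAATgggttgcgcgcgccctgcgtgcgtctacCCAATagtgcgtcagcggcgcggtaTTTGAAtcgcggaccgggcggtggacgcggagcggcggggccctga
Plk1: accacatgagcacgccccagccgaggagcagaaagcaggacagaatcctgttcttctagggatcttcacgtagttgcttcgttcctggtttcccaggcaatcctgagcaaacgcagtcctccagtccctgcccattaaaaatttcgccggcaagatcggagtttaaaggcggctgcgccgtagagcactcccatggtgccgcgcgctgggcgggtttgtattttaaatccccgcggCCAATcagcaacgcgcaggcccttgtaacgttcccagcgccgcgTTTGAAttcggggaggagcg
Kif11: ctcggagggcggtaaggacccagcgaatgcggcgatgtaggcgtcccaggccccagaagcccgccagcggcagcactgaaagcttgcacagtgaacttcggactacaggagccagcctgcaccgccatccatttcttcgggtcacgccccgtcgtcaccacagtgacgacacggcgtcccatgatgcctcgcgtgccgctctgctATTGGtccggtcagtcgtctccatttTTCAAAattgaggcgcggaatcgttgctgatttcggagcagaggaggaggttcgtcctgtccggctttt
Cdc20: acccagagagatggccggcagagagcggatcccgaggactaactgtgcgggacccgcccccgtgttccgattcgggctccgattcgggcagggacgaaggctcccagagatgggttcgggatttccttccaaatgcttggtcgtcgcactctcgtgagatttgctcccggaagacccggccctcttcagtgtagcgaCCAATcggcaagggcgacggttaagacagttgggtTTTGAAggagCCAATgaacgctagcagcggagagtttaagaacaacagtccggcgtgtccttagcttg
Bub3: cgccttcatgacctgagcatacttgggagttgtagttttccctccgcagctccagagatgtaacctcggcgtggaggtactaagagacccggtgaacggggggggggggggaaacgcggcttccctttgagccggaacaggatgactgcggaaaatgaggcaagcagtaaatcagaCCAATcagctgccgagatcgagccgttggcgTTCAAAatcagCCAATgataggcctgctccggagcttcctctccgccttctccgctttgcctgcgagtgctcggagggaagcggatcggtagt

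RefSeq promoter windows were matched for 41 of the 49 members, as 44 windows, and Aurkb, Ccna2, Cdc25c, Foxm1, Incenp, Kif20a, Smc4 and Tpx2 had no entry. The cell cycle homology letters stood in 36 of the 44 windows (81.8%), against 19.2% of all 32851 windows of the table. CCAAT stood in 33 (75.0%), against 37.4% of all windows, and both motifs together in 31 (70.5%), against 7.52%. In 1 place a homology motif overlapped a CCAAT box, and in 1 place a pair of CCAAT boxes overlapped. These are matches of letters, given as a description, and not bound sites; all windows have the same length, and members with more than 1 window are counted by window.

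The homology letters lay near the start of the genes: the 50 matches in 33 members had a median position of -14.5 bases relative to the start. The 74 CCAAT matches in 30 members lay further upstream, with a median of -76 bases. Ect2, Prc1 and Bub3 have 2 overlapping windows each, and sites that lie in both are counted in each window, also in the medians. The homology letters were also common among 73 further genes of G2 and mitosis, with 35 of 58 matched genes (60.3%). Among 41 genes of the G1/S transition and DNA replication they were in 7 of 32 matched genes (21.9%). Of the non-member genes that were lower under ATRi in all 3 lines, 206 of 797 matched genes (25.8%) had them, and of the remaining genes tested 14.6%.

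**Figure D1:**
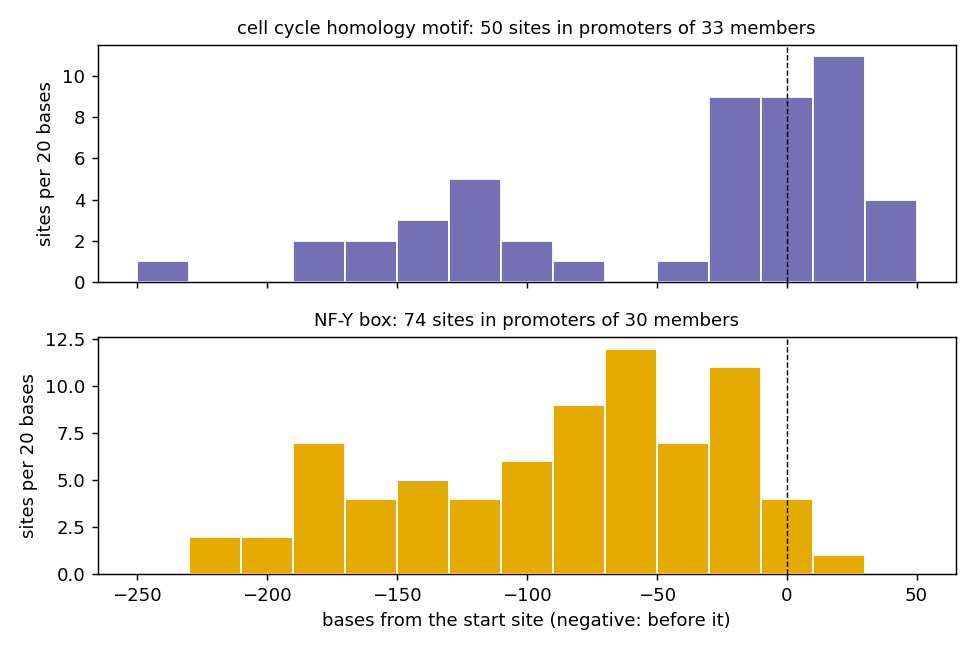
Positions of the promoter motifs of the members, in bases from the start of the gene (x axis; negative is before the start), as the number of sites per 20 bases (y axis). The 50 cell cycle homology sites (top) have their median at -14.5 bases and the 74 NF-Y boxes (bottom) at -76 bases. Sites in overlapping windows of the same gene are counted in each window.

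Under ATRi nearly the whole group fell. In the control 47 of the 49 members were lower than in DMSO, in ΔUNG 48 and in ΔUNG_2 47, and none was higher in any line; 47 members were lower in all 3. For comparison, 16.8% of all 11323 genes tested were lower in control cells, 19.4% in ΔUNG and 17.3% in ΔUNG_2. Beyond the members, 1056 genes were lower in all 3 lines. The test was limma on log2(FPKM + 0.5), with Benjamini-Hochberg adjustment over all genes tested and a two-sided threshold of 0.05, and every fold change below is a log2 difference on that scale, given ± its standard error (SE). The members' median log2 fold change was -0.80 in control cells, -1.05 in ΔUNG and -0.99 in ΔUNG_2, while the median of all genes tested lay within 0.02 of 0 in each line. Members kept a median of 56.8% in control cells, 47.6% in ΔUNG and 49.7% in ΔUNG_2 of their mean DMSO FPKM. The members not lower were Cdc20 and Bub3 in the control and in ΔUNG_2, and Bub3 in ΔUNG. In the control, 5 calls rested on single libraries. Without either DMSO library of the control, Ccnf, Kif20a and Kif2c no longer passed (adjusted p at most 0.26, 0.119 and 0.13 over the libraries left out), and neither did Kif23 without replicate 1 (0.0596) or Cdc25c without replicate 2 (0.0517). Kif20a was also lost without either ATRi library of the control, Kif2c without the second, and Ccnf without that one or without either ΔUNG ATRi or ΔUNG_2 DMSO library. In ΔUNG_2, Kif2c was lost without either DMSO library of that line (0.0567).

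**Figure D2:**
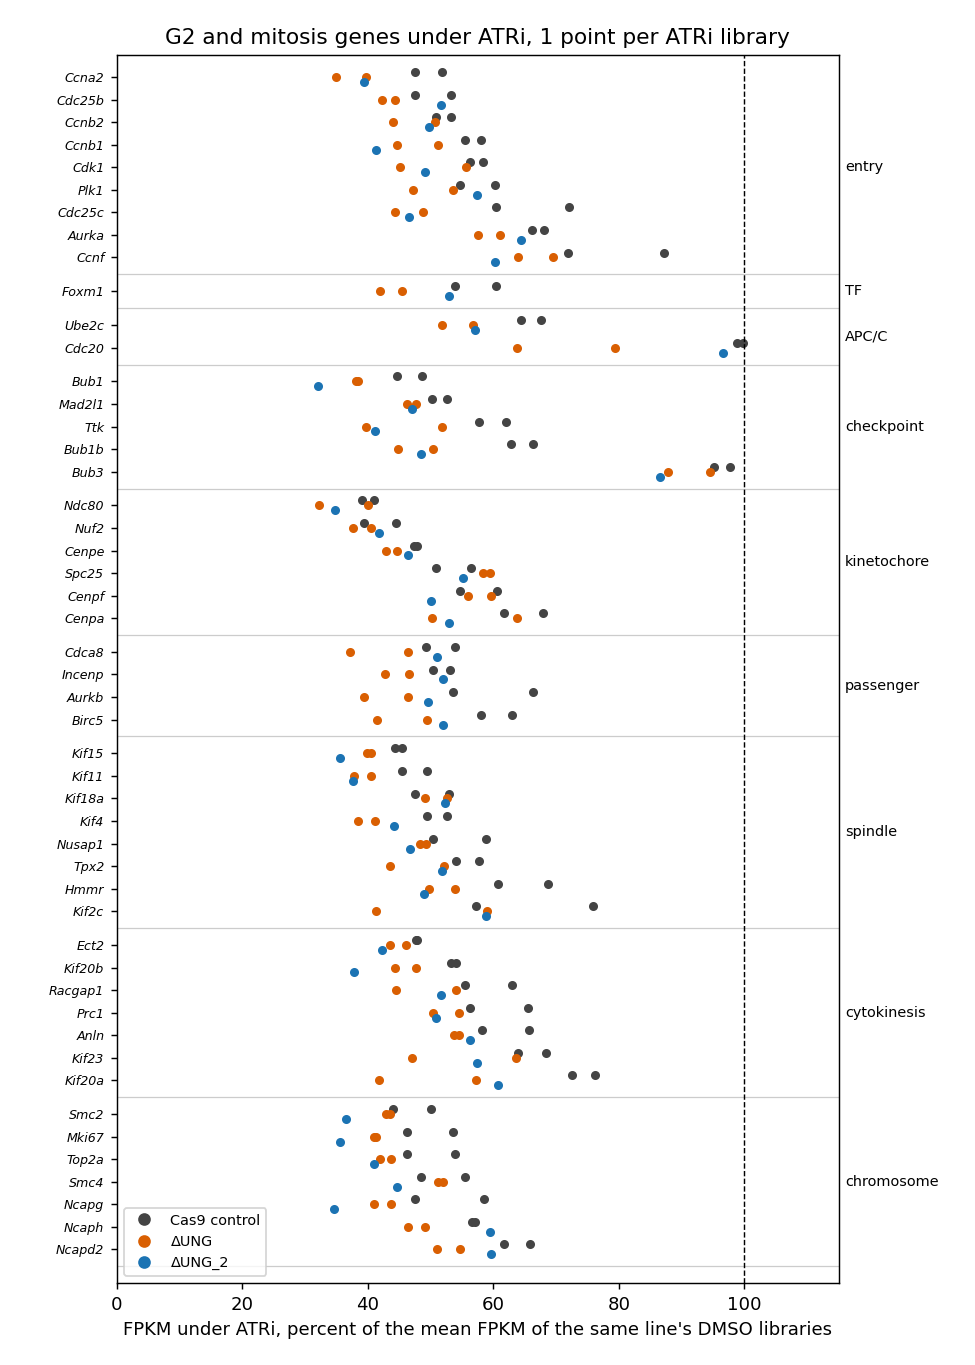
FPKM of each of the 49 members in each of the 5 ATRi libraries, as a percent of the mean FPKM of the same line's 2 DMSO libraries (x axis; dashed line at 100%), with members grouped by role (right) and lines by colour. All points lie left of the dashed line, and the points of Cdc20 in the control lie closest to it.

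The drop is visible before any test. The members took 0.723% to 0.819% of all fragments in the 6 DMSO libraries, 0.466% and 0.442% in the control under ATRi, 0.380% and 0.352% in ΔUNG and 0.377% in ΔUNG_2. The 95% Wilson interval of each share is at most 0.00439 percentage points wide to either side and covers counting error only. Among the DMSO libraries, replicate 1 of ΔUNG had the lowest share. The 5 ATRi libraries lay below the 6 DMSO libraries without overlap, and the 3 clone libraries under ATRi lay below both control libraries under ATRi. Taken singly, 48 of the 49 members had all 5 ATRi libraries below all 6 DMSO libraries, the exception being Cdc20; 15.8% of all genes tested had that order. In bulk RNA, fewer cells in G2 and mitosis and less of these RNAs per cell cannot be told apart.

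At 17014697 to 28464757 mapped fragments per library, the depth recovered from the FPKM values, each member was covered by at least 278 fragments in every library. The 7 melanocyte markers were all present and summed to 7220.3 to 9611 FPKM per library, and 14 markers of leukocytes, endothelium, fibroblasts, epithelium and red cells summed to 0.544 to 1.09, with 5 of 14 listed, none above the 0.5 FPKM mean and 1 of the 5 at 0 in 8 libraries. The RNA of Ung, the knockout target, was set beside the clone labels. In DMSO it was at 2.86 and 2.48 FPKM in control cells, 1.39 and 0.774 in ΔUNG and 2.01 and 1.78 in ΔUNG_2, and under ATRi at 2.56 and 2.999 FPKM in control cells, 1.27 and 0.675 in ΔUNG and 1.74 in ΔUNG_2. Both clones lay below the control in every library; the difference from the control in DMSO passed in ΔUNG (-1.03 ± 0.23, adjusted p = 0.0246) but not in ΔUNG_2 (-0.40 ± 0.23, adjusted p = 0.355). The call in ΔUNG was lost under 5 of 20 alternative settings. Among them were the fits without replicate 1 or 2 of the control in DMSO or replicate 2 of ΔUNG in DMSO. The RNA level does not show whether the protein is made, and in ΔUNG_2, where the difference did not pass, it does not settle the label.

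The 9 kinases, cyclins and phosphatases of mitotic entry were lower under ATRi in every line (9, 9 and 9 of 9 in the control, ΔUNG and ΔUNG_2), and kept a median of 57.3% in control cells, 47.9% in ΔUNG and 49.7% in ΔUNG_2 of their DMSO level. Ccnb2 (ENSMUSG00000032218, chr9:70407692-70421547), a B-type cyclin that activates CDK1, was the member of this set with the highest mean level. In DMSO, Ccnb2 was at 66.4 and 66.9 FPKM in control cells, 62.3 and 68.3 in ΔUNG and 67.3 and 66.7 in ΔUNG_2. Under ATRi, it was at 33.9 and 35.5 FPKM in control cells, 33.1 and 28.7 in ΔUNG and 33.3 in ΔUNG_2. The ATRi libraries of all 3 lines lay close together and far below every DMSO library, with log2 fold changes of -0.93 ± 0.08 in control cells, -1.07 ± 0.08 in ΔUNG and -0.997 ± 0.10 in ΔUNG_2 (adjusted p = 3.97e-05, 1.76e-05 and 9.14e-05). Plk1 (ENSMUSG00000030867, chr7:122159439-122169873), the polo-like kinase that acts from centrosome maturation to cytokinesis, was at 59.0 and 59.9 FPKM in control cells, 57.2 and 53.8 in ΔUNG and 59.2 and 61.8 in ΔUNG_2 in DMSO. Under ATRi, Plk1 was at 32.5 and 35.8 FPKM in control cells, 29.7 and 26.2 in ΔUNG and 34.7 in ΔUNG_2. Again no ATRi library reached a DMSO library. Plk1 changed by -0.79 ± 0.08 in control cells, -0.98 ± 0.08 in ΔUNG and -0.79 ± 0.10 in ΔUNG_2 (adjusted p = 9.88e-05, 2.53e-05 and 3.23e-04).

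Among the other entry genes, Ccna2, the A-type cyclin of S phase and G2, had the lowest fold change in each line, with -0.99, -1.39 and -1.32 in the control, ΔUNG and ΔUNG_2; its value in ΔUNG was the lowest of all 49 members there. Cdk1, the mitotic kinase itself, had -0.79, -0.98 and -1.004, and its partner cyclin Ccnb1 had -0.80, -1.05 and -1.25. The phosphatase genes Cdc25b and Cdc25c, whose products remove the inhibitory phosphates from CDK1, had -0.96, -1.16 and -0.92 and -0.57, -1.05 and -1.05. Aurka, the centrosomal Aurora kinase, had -0.57, -0.74 and -0.62. Ccnf, which encodes cyclin F, a substrate receptor of an SCF ubiquitin ligase, had the smallest drop of the set in the control at -0.33 ± 0.11 (adjusted p = 0.048), and had -0.56 and -0.70 in the clones. Foxm1, the forkhead activator of G2 and mitosis genes, was at 28.6 and 29.4 FPKM in control cells, 28.2 and 30.2 in ΔUNG and 29.1 and 32.8 in ΔUNG_2 in DMSO. Under ATRi, Foxm1 was at 17.5 and 15.6 FPKM in control cells, 13.2 and 12.3 in ΔUNG and 16.4 in ΔUNG_2. It was lower in each line with no overlap between treatments. Foxm1 changed by -0.79 ± 0.09 in control cells, -1.16 ± 0.09 in ΔUNG and -0.89 ± 0.10 in ΔUNG_2 (adjusted p = 1.59e-04, 1.76e-05 and 2.58e-04).

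The genes that act with the anaphase-promoting complex, the ubiquitin ligase that ends mitosis, are Ube2c, which was lower in all 3 lines, and Cdc20, which passed in ΔUNG alone. Ube2c (ENSMUSG00000001403, chr2:164769898-164778822), its ubiquitin-conjugating enzyme, was at 52.1 and 52.6 FPKM in control cells, 48.3 and 48.9 in ΔUNG and 49.1 and 47.9 in ΔUNG_2 in DMSO. Under ATRi, Ube2c was at 35.4 and 33.7 FPKM in control cells, 27.6 and 25.1 in ΔUNG and 27.7 in ΔUNG_2. No ATRi library reached a DMSO library. Ube2c changed by -0.59 ± 0.06 in control cells, -0.87 ± 0.06 in ΔUNG and -0.80 ± 0.08 in ΔUNG_2 (adjusted p = 1.60e-04, 1.79e-05 and 1.07e-04). Cdc20 (ENSMUSG00000006398, chr4:118432901-118437352), the co-activator that opens anaphase, was at 42.3 and 43.5 FPKM in control cells, 51.0 and 47.4 in ΔUNG and 51.0 and 49.9 in ΔUNG_2 in DMSO. Under ATRi, Cdc20 was at 42.4 and 42.8 FPKM in control cells, 39.1 and 31.3 in ΔUNG and 48.7 in ΔUNG_2. The control's ATRi values lay inside the range of its own DMSO values, the ΔUNG values below both of theirs, and the single ΔUNG_2 value just below its pair. The log2 fold changes were -0.01 ± 0.09 in control cells, -0.48 ± 0.09 in ΔUNG and -0.05 ± 0.12 in ΔUNG_2 (adjusted p = 0.947, 0.00354 and 0.767). The difference between the ΔUNG and control responses, -0.47 ± 0.13, did not itself pass (adjusted p = 0.208). The 2 ΔUNG ATRi libraries differed from each other more for Cdc20 than the control pair did. Both its promoter motifs are in the window printed above.

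Of 14 listed genes of the complex itself and its regulators, 7, 9 and 5 were lower in the control, ΔUNG and ΔUNG_2, none was higher, and the median log2 fold changes were -0.22 in control cells, -0.24 in ΔUNG and -0.25 in ΔUNG_2, nearer 0 than the members' medians. The subunit genes Anapc5 (-0.14, -0.26 and -0.17 in the control, ΔUNG and ΔUNG_2) and Cdc27 (-0.40, -0.33 and -0.43) and the chain-extending enzyme gene Ube2s (-0.40, -0.59 and -0.20) were the 3 with the highest levels; Anapc5 passed in ΔUNG alone, Cdc27 in all 3 lines and Ube2s in the control and ΔUNG.

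Of the 5 spindle checkpoint genes, whose products delay anaphase until every kinetochore is attached, 4 were lower in each line. Bub1 (ENSMUSG00000027379, chr2:127801122-127831865), the checkpoint kinase at the kinetochore, was at 32.4 and 34.7 FPKM in control cells, 30.3 and 36.7 in ΔUNG and 34.0 and 35.2 in ΔUNG_2 in DMSO. Under ATRi, Bub1 was at 16.3 and 15.0 FPKM in control cells, 12.9 and 12.8 in ΔUNG and 11.1 in ΔUNG_2. No ATRi library reached a DMSO library. Its log2 fold changes were -1.08 ± 0.09 in control cells, -1.34 ± 0.09 in ΔUNG and -1.60 ± 0.11 in ΔUNG_2 (adjusted p = 4.39e-05, 1.38e-05 and 2.35e-05), and the ΔUNG_2 value was the lowest of all members in that line. Mad2l1, the inhibitor that binds CDC20, had -0.92, -1.04 and -1.04 and the kinase gene Ttk (also called Mps1) had -0.68, -1.02 and -1.16 in the same order. Bub1b, whose product BubR1 is part of the same inhibitory complex, had -0.62, -1.05 and -1.02.

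Bub3 (ENSMUSG00000066979, chr7:131560222-131571895), the WD-repeat adaptor that carries BUB1 and BubR1 to kinetochores, did not pass in any line. It was at 30.3 and 30.1 FPKM in control cells, 30.4 and 31.4 in ΔUNG and 33.0 and 33.4 in ΔUNG_2 in DMSO. Under ATRi, Bub3 was at 29.5 and 28.7 FPKM in control cells, 29.2 and 27.1 in ΔUNG and 28.7 in ΔUNG_2. Every ATRi value lay below every DMSO value, but by little: the lowest DMSO library had 30.1 FPKM and the highest ATRi library 29.5. The log2 fold changes were -0.05 ± 0.06 in control cells, -0.13 ± 0.06 in ΔUNG and -0.21 ± 0.08 in ΔUNG_2 (adjusted p = 0.558, 0.125 and 0.0603), none past the threshold. For ΔUNG_2 the value lay near the threshold, and it passed as lower under 4 of 20 alternatives: limma-voom on recovered fragments (adjusted p = 0.0198), no filter on low values (0.0341), a fit of the compared groups alone (0.0444) and scaling to the same FPKM sum over all but the shortest genes (0.0173). The plot of FPKM by library shows Cdc20 and Bub3 beside 6 members that fell.

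**Figure D3:**
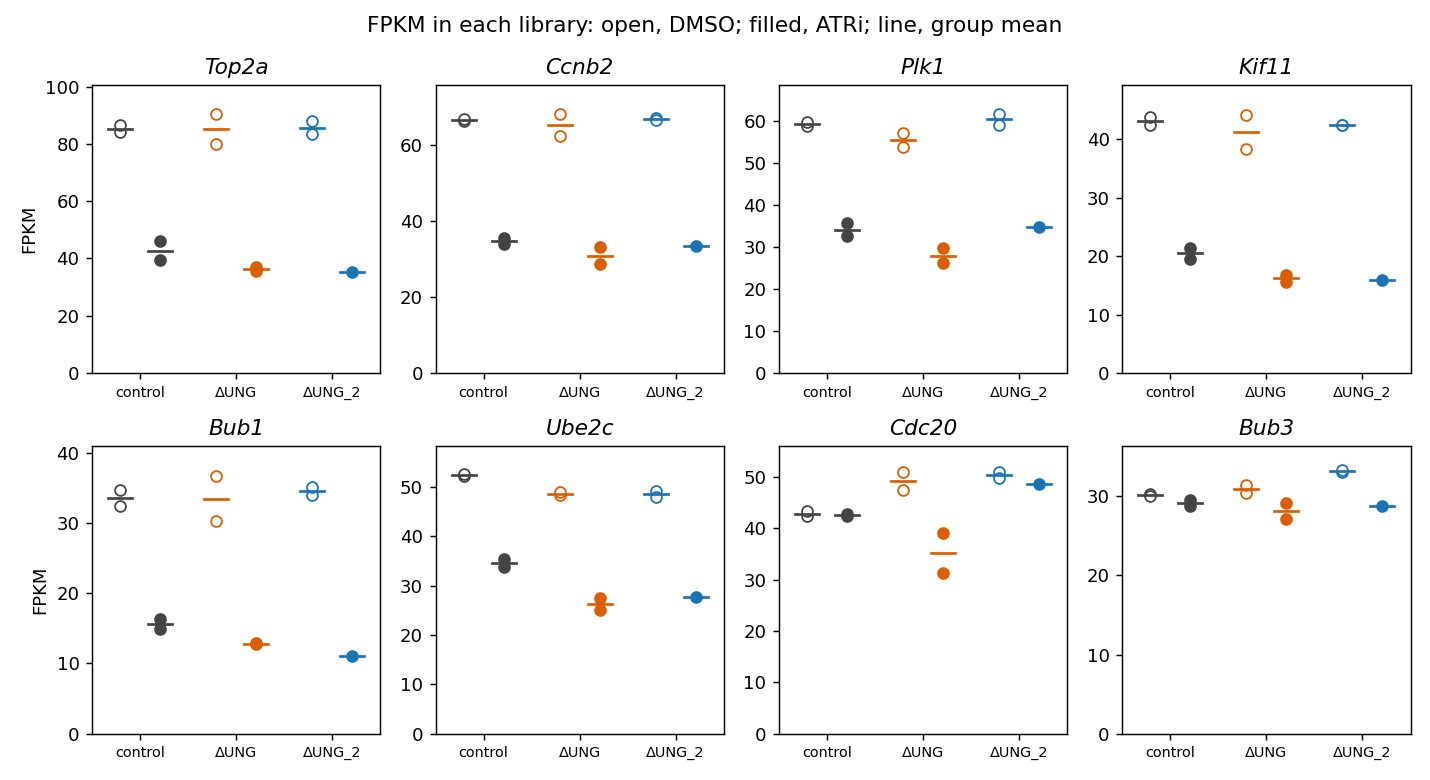
FPKM of 8 members (y axes, from 0) in each of the 11 libraries, with open circles for DMSO, filled circles for ATRi and a line at the group mean, for the Cas9 control, ΔUNG and ΔUNG_2 (x axes). For Top2a, Ccnb2, Plk1, Kif11, Bub1 and Ube2c the filled circles lie far below the open ones in all 3 lines; for Bub3 they lie just below, and for Cdc20 the open and filled circles of the control lie at like heights.

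The 6 centromere and kinetochore genes were lower in every line, and kept 40.0% to 64.8% of their DMSO level in control cells, 36.1% to 58.9% in ΔUNG and 34.8% to 55.2% in ΔUNG_2. Spc25 (ENSMUSG00000005233, chr2:69193895-69206194), a subunit of the NDC80 complex that binds microtubules, was at 19.7 and 21.2 FPKM in control cells, 17.9 and 22.3 in ΔUNG and 20.1 and 21.9 in ΔUNG_2 in DMSO. Under ATRi, Spc25 was at 10.4 and 11.5 FPKM in control cells, 11.9 and 11.7 in ΔUNG and 11.6 in ΔUNG_2. Its log2 fold changes were -0.87 ± 0.11 in control cells, -0.73 ± 0.11 in ΔUNG and -0.83 ± 0.13 in ΔUNG_2 (adjusted p = 3.07e-04, 6.86e-04 and 0.00129) with no overlap between treatments. Ndc80 and Nuf2, subunits of the same complex, had -1.23, -1.35 and -1.41 and -1.19, -1.27 and -1.19, and Ndc80 had the lowest fold change of all members in the control. Cenpe (ENSMUSG00000045328, chr3:135212537-135273611), a kinetochore kinesin, was at 18.04 and 21.3 FPKM in control cells, 16.1 and 18.8 in ΔUNG and 17.3 and 17.96 in ΔUNG_2 in DMSO. Under ATRi, Cenpe was at 9.42 and 9.33 FPKM in control cells, 7.46 and 7.77 in ΔUNG and 8.17 in ΔUNG_2. The treatments did not overlap, and Cenpe changed by -1.03 ± 0.10 in control cells, -1.14 ± 0.10 in ΔUNG and -1.06 ± 0.12 in ΔUNG_2 (adjusted p = 7.54e-05, 3.35e-05 and 2.07e-04). Cenpa, the histone H3 variant of centromeres, had -0.60, -0.79 and -0.88, and Cenpf, a large kinetochore protein, -0.74, -0.73 and -0.92.

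All 4 genes of the chromosomal passenger complex, which corrects faulty attachments and directs cleavage, were lower in each line. Its kinase gene Aurkb (ENSMUSG00000020897, chr11:69045647-69051664) was at 39.0 and 39.2 FPKM in control cells, 43.3 and 42.5 in ΔUNG and 42.1 and 46.5 in ΔUNG_2 in DMSO. Under ATRi, Aurkb was at 20.9 and 25.9 FPKM in control cells, 19.9 and 16.9 in ΔUNG and 22.0 in ΔUNG_2. Aurkb changed by -0.74 ± 0.11 in control cells, -1.20 ± 0.11 in ΔUNG and -0.99 ± 0.13 in ΔUNG_2 (adjusted p = 9.07e-04, 4.37e-05 and 5.61e-04). Birc5 (ENSMUSG00000017716, chr11:117849251-117855743), which encodes survivin, was at 37.6 and 38.7 FPKM in control cells, 34.1 and 40.4 in ΔUNG and 38.1 and 38.6 in ΔUNG_2 in DMSO. Under ATRi, Birc5 was at 24.0 and 22.2 FPKM in control cells, 18.4 and 15.5 in ΔUNG and 19.9 in ΔUNG_2. Birc5 changed by -0.71 ± 0.10 in control cells, -1.12 ± 0.10 in ΔUNG and -0.93 ± 0.12 in ΔUNG_2 (adjusted p = 6.63e-04, 4.16e-05 and 5.11e-04). For both genes the 5 ATRi libraries lay below the 6 DMSO libraries. Under ATRi the 3 clone libraries lay below the control pair for Birc5, while for Aurkb the ΔUNG_2 library lay between the control libraries. The scaffold gene Incenp had -0.93, -1.14 and -0.92 and Cdca8, which encodes borealin, -0.92, -1.21 and -0.93.

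All 8 spindle motors and microtubule factors were lower in each line, and kept a median of 52.8% in control cells, 48.3% in ΔUNG and 47.8% in ΔUNG_2 of the DMSO level. Tpx2 (ENSMUSG00000027469, chr2:152847964-152895321), the spindle factor that activates Aurora A, was at 52.2 and 48.7 FPKM in control cells, 43.1 and 50.3 in ΔUNG and 48.5 and 48.8 in ΔUNG_2 in DMSO. Under ATRi, Tpx2 was at 29.1 and 27.2 FPKM in control cells, 24.3 and 20.3 in ΔUNG and 25.2 in ΔUNG_2. Tpx2 changed by -0.83 ± 0.10 in control cells, -1.05 ± 0.10 in ΔUNG and -0.94 ± 0.12 in ΔUNG_2 (adjusted p = 2.97e-04, 5.66e-05 and 4.87e-04). Kif11 (ENSMUSG00000012443, chr19:37376403-37421859), the kinesin that pushes spindle poles apart, was at 42.4 and 43.8 FPKM in control cells, 38.4 and 44.2 in ΔUNG and 42.4 and 42.4 in ΔUNG_2 in DMSO. Under ATRi, Kif11 was at 21.3 and 19.6 FPKM in control cells, 16.7 and 15.6 in ΔUNG and 15.9 in ΔUNG_2. Kif11 changed by -1.06 ± 0.08 in control cells, -1.32 ± 0.08 in ΔUNG and -1.38 ± 0.10 in ΔUNG_2 (adjusted p = 2.47e-05, 8.06e-06 and 2.41e-05), and the treatments did not overlap for either gene. Kif15, another motor that can separate poles, had -1.07, -1.19 and -1.36, and the chromosome-bound motor gene Kif4 had -0.93, -1.26 and -1.12. Kif18a, whose product steadies chromosomes at the spindle equator, had -0.81, -0.79 and -0.75, and the microtubule-depolymerising Kif2c had -0.57, -0.97 and -0.73. Nusap1 and Hmmr, which encode microtubule-binding proteins of the spindle, had -0.85, -1.001 and -1.06 and -0.62, -0.92 and -1.004.

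The 7 genes of the central spindle and cytokinesis were lower in each line as well. Racgap1 (ENSMUSG00000023015, chr15:99620496-99651656), the GTPase-activating part of centralspindlin, was at 33.0 and 34.0 FPKM in control cells, 31.0 and 29.8 in ΔUNG and 32.5 and 32.9 in ΔUNG_2 in DMSO. Under ATRi, Racgap1 was at 21.1 and 18.6 FPKM in control cells, 16.4 and 13.5 in ΔUNG and 16.9 in ΔUNG_2. Racgap1 changed by -0.74 ± 0.10 in control cells, -1.005 ± 0.10 in ΔUNG and -0.93 ± 0.12 in ΔUNG_2 (adjusted p = 4.02e-04, 5.59e-05 and 3.65e-04). Anln (ENSMUSG00000036777, chr9:22332012-22389188), which encodes anillin of the contractile ring, was at 24.6 and 26.9 FPKM in control cells, 19.7 and 23.1 in ΔUNG and 22.8 and 23.0 in ΔUNG_2 in DMSO. Under ATRi, Anln was at 16.9 and 15.0 FPKM in control cells, 11.7 and 11.5 in ΔUNG and 12.9 in ΔUNG_2. Anln changed by -0.68 ± 0.09 in control cells, -0.85 ± 0.09 in ΔUNG and -0.81 ± 0.11 in ΔUNG_2 (adjusted p = 5.49e-04, 1.15e-04 and 6.72e-04). No ATRi library reached a DMSO library for either gene. The other centralspindlin gene, Kif23, had -0.56, -0.81 and -0.75. Ect2, which encodes the activator of RhoA at the cleavage site, had -1.03, -1.11 and -1.19, and Prc1, which bundles antiparallel microtubules, had -0.70, -0.89 and -0.94. The kinesin genes Kif20a and Kif20b had -0.42, -0.997 and -0.70 and -0.85, -1.06 and -1.32. Kif20a had the smallest drop of this set in the control (adjusted p = 0.025) and in ΔUNG_2.

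The 7 genes of condensin, topoisomerase and the chromosome surface were lower in each line and kept a median of 52.0% in control cells, 43.2% in ΔUNG and 41.0% in ΔUNG_2 of their DMSO level. Top2a (ENSMUSG00000020914, chr11:98992943-99024189), the topoisomerase that disentangles sister chromatids, had the highest mean FPKM of all 49 members. In DMSO, Top2a was at 84.0 and 86.4 FPKM in control cells, 79.9 and 90.4 in ΔUNG and 83.3 and 88.1 in ΔUNG_2. Under ATRi, Top2a was at 45.9 and 39.4 FPKM in control cells, 37.1 and 35.7 in ΔUNG and 35.1 in ΔUNG_2. The log2 fold changes were -0.99 ± 0.09 in control cells, -1.21 ± 0.09 in ΔUNG and -1.27 ± 0.11 in ΔUNG_2 (adjusted p = 4.93e-05, 1.63e-05 and 4.69e-05), with no overlap. Mki67 (ENSMUSG00000031004, chr7:135689784-135716361), which encodes Ki-67, the coat of mitotic chromosomes used as a proliferation marker, was at 65.7 and 67.5 FPKM in control cells, 58.6 and 71.2 in ΔUNG and 65.7 and 70.5 in ΔUNG_2 in DMSO. Under ATRi, Mki67 was at 35.6 and 30.8 FPKM in control cells, 26.8 and 26.6 in ΔUNG and 24.2 in ΔUNG_2, again without overlap. Mki67 changed by -0.996 ± 0.10 in control cells, -1.26 ± 0.10 in ΔUNG and -1.48 ± 0.12 in ΔUNG_2 (adjusted p = 9.85e-05, 2.29e-05 and 4.42e-05). The condensin core genes Smc2 and Smc4 had -1.07, -1.18 and -1.42 and -0.93, -0.94 and -1.14. Of the subunits of condensin I alone, Ncapg had -0.89, -1.18 and -1.46, Ncapd2 -0.64, -0.91 and -0.73 and Ncaph -0.80, -1.04 and -0.73, so in ΔUNG_2 the fitted drop of Ncapg was deeper than that of either partner; that difference between genes was not tested.

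Members that fell further in one line tended to fall further in the others. Over the 49 members, Pearson's r of the log2 fold changes was 0.83 between control cells and ΔUNG, 0.83 between the control and ΔUNG_2 and 0.82 between the clones, with Spearman's rho of 0.77, 0.76 and 0.75. Without Cdc20 and Bub3, r over the other 47 was 0.74, 0.73 and 0.73. These are descriptions across genes, which share libraries and are not replicates. Members were also divided by the homology letters: in the control the 33 matched members with them had a median log2 fold change of -0.79 and the 8 without them -0.83, in ΔUNG -1.005 and -1.04, and in ΔUNG_2 -0.94 and -1.05. The members without them were Birc5, Ccnb1, Cenpe, Kif18a, Mad2l1, Ncaph, Nuf2 and Nusap1.

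The drop extended past the members. Of 73 further genes of G2 and mitosis, 60, 66 and 59 were lower in the control, ΔUNG and ΔUNG_2 and 2, 2 and 3 were higher, with median log2 fold changes of -0.69 in control cells, -0.91 in ΔUNG and -0.79 in ΔUNG_2. The CDK subunit gene Cks2 was lower in each line (-0.73, -1.003 and -1.09, in the order control, ΔUNG, ΔUNG_2), as was the condensin II gene Ncaph2 (-0.34, -0.61 and -0.29), and Cks1b passed in the clones (-0.26, -0.68 and -0.76). Against the rest, Gtse1 and Psrc1, both also known as p53 targets (Gtse1 is in the p53 list too), were higher in all 3 lines (0.50, 0.68 and 0.84 and 0.75, 0.83 and 1.03), and the centromere gene Cenpt was higher in ΔUNG_2 (0.34 ± 0.12, adjusted p = 0.0479). Of 12 cohesin genes, whose products hold sister chromatids together, 8, 7 and 10 were lower and none higher, with medians of -0.46 in control cells, -0.43 in ΔUNG and -0.61 in ΔUNG_2. Rad21, the ring subunit cut at anaphase, had -0.58, -0.64 and -0.79, Smc3 -0.43, -0.49 and -0.65 and Stag2 -0.52, -0.24 and -0.57, of which Stag2 did not pass in ΔUNG.

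Genes that act earlier in the cycle fell as well. Of 41 genes of G1/S and replication, 36, 41 and 37 were lower and none higher, with medians of -0.63 in control cells, -0.98 in ΔUNG and -0.84 in ΔUNG_2, so the drop was not confined to the late genes. The ribonucleotide reductase gene Rrm2 had -0.99, -1.34 and -0.96, the helicase gene Mcm3 -0.69, -1.06 and -0.85 and the sliding clamp gene Pcna -0.39, -0.83 and -0.72. Of 11 genes of the DREAM and MuvB regulators, 5, 5 and 5 were lower and 1, 1 and 0 higher. Among the 3 with the highest levels, Tfdp1 was lower in each line (-0.26, -0.44 and -0.52), while the histone-binding Rbbp4 (-0.08, -0.18 and 0.001) and the repressor E2f4 (-0.01, -0.28 and -0.03) did not pass in any. The MuvB gene Lin37 was higher in the control and ΔUNG (0.39, 0.54 and 0.28). Of 10 p53 targets, p53 itself included, 8, 8 and 8 were higher and none lower. Cdkn1a, the p53 target whose product p21 inhibits CDKs, was at 60.9 and 55.6 FPKM in control cells, 58.7 and 51.9 in ΔUNG and 53.7 and 49.7 in ΔUNG_2 in DMSO. Under ATRi, Cdkn1a was at 193 and 187 FPKM in control cells, 202 and 204 in ΔUNG and 242 in ΔUNG_2. Every ATRi library was higher than every DMSO library, and Cdkn1a changed by 1.70 ± 0.08 in control cells, 1.87 ± 0.08 in ΔUNG and 2.21 ± 0.10 in ΔUNG_2 (adjusted p = 3.95e-06, 1.60e-06 and 2.54e-06). The p53 targets Ccng1 and Mdm2 had 1.27, 1.82 and 1.76 and 0.92, 1.36 and 1.39. Whether these changes bear on the members was not tested.

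**Figure D4:**
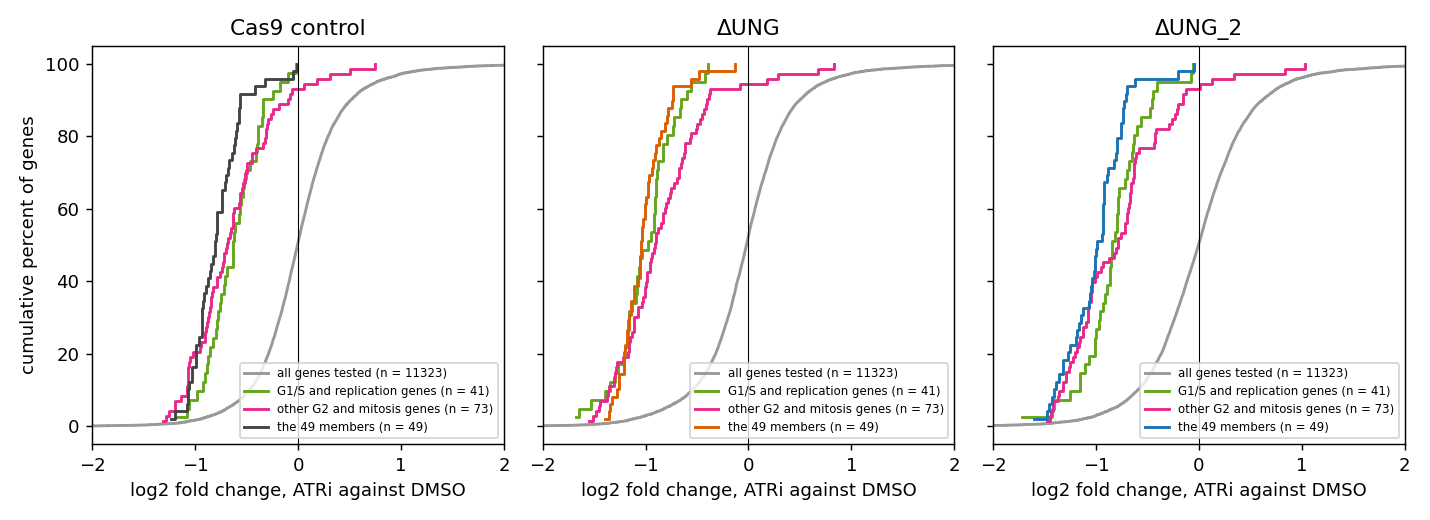
Cumulative percent of genes (y axis) by log2 fold change of ATRi against DMSO (x axis) in the Cas9 control, ΔUNG and ΔUNG_2, for the 49 members, 73 other G2 and mitosis genes, 41 G1/S and replication genes and all 11323 genes tested. The curves of the 3 lists lie left of the curve of all genes, which crosses the middle near 0.

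In DMSO no member passed the test between a clone and the control. Of the 49, 0 were lower and 0 higher in ΔUNG, and the same counts held in ΔUNG_2. By comparison, 8.72% of all genes tested differed from the control in ΔUNG and 8.2% in ΔUNG_2. At an unadjusted p under 0.05, limma counted 3 members in ΔUNG and 2 in ΔUNG_2. With adjustment, limma-voom on recovered fragments called 2 members lower in ΔUNG and 0 in ΔUNG_2. The shares of all genes for these 2 settings are not given here, and the adjusted shares above do not serve as their background. The median log2 differences were -0.05 and -0.02, within ranges of -0.26 (Anln) to 0.19 (Cdc20) in ΔUNG and -0.18 (Ect2) to 0.23 (Cdc20) in ΔUNG_2. Cdc20 was thus the highest member in both comparisons, which share the control libraries, at 0.19 ± 0.09 (adjusted p = 0.248) and 0.23 ± 0.09 (adjusted p = 0.181). In a fit of the compared groups alone, Cdc20 passed as higher in ΔUNG_2 (adjusted p = 0.0315). By the fitted values 39 members in ΔUNG and 27 in ΔUNG_2 were below the control in DMSO, without a share of all genes to set beside these counts. Between the clones in DMSO, 0 members passed and 0 did at an unadjusted p under 0.05, against 0.0442% of all genes, and the median difference of ΔUNG_2 from ΔUNG was 0.05.

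Under ATRi the clones lay below the control in part of the group. In ΔUNG 13 of 49 members were lower than in the control and none higher, with 3.13% of all genes tested lower; in ΔUNG_2 6 were lower and none higher, with 2.27% of all genes lower. The median log2 differences were -0.28 and -0.23, and 48 and 42 members were below 0. In DMSO, 39 and 27 were below the control. The share of all genes below the control is not given here, so these sign counts have no background. In ΔUNG the 13 were Ube2c, Ccna2, Bub1b, Prc1, Anln, Hmmr, Kif4, Kif20a, Birc5, Foxm1, Racgap1, Kif20b and Kif11, with Ccna2 lowest at -0.54 ± 0.08 (adjusted p = 0.00479) and Kif20a at -0.54 ± 0.12 (adjusted p = 0.0306). In ΔUNG_2 they were Hmmr, Kif20b, Ccna2, Bub1, Ncapg and Ccnb1, with Ncapg lowest at -0.64 ± 0.15 (adjusted p = 0.0467). The members with the highest values, Spc25 in ΔUNG (0.11 ± 0.11, adjusted p = 0.612) and Cdc20 in ΔUNG_2 (0.19 ± 0.12, adjusted p = 0.37), did not pass. Ccna2, Hmmr and Kif20b were in both sets, which share the control libraries. For Ccna2 the ATRi libraries were at 20.8 and 19.1 FPKM in control cells, 14.4 and 12.7 in ΔUNG and 14.6 in ΔUNG_2, so each clone library lay below both control libraries. For Hmmr the ATRi values were 18.5 and 16.4 FPKM in control cells, 13.1 and 14.2 in ΔUNG and 12.3 in ΔUNG_2, in the same order. For Kif20b they were 7.45 and 7.34 FPKM in control cells, 5.60 and 6.02 in ΔUNG and 5.03 in ΔUNG_2, again without overlap between clones and control.

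These counts rest on few libraries. Without replicate 1 of the control under ATRi, 3 members were called in ΔUNG and 0 in ΔUNG_2; without replicate 2 of that group the counts were 8 and 8. Without replicate 2 of ΔUNG under ATRi 1 was called in ΔUNG. Leaving out either DMSO library of the control or of ΔUNG_2, which enter through the shared spread, gave 6 in ΔUNG and 2 in ΔUNG_2. A fit of the compared groups alone called 1 and 0, and limma-voom on recovered fragments called 32 and 16. Over all genes, the counts differing under ATRi in either direction also fell in that fit and rose with limma-voom, as given at the end. The share of all genes lower at each setting is not given here. The control pair under ATRi was also the deepest of the 11 libraries.

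The response itself was then compared between lines. By the fitted values, the drop under ATRi was deeper than in the control for 46 of 49 members in ΔUNG and 43 in ΔUNG_2, with median differences of -0.22 and -0.19 on the log2 scale, in comparisons that share the control libraries. Among all genes tested 6102 and 5545 of 11323 were below 0, with medians of -0.02 and 0.01. No member passed the test of the difference in either clone, where 0.0177% and 0.0707% of all genes did, both after adjustment. With limma-voom 0 and 0 members were called as well. At an unadjusted p under 0.05, limma counted 14 and 11 members. The share of all genes at that unadjusted threshold is not given here, so these 2 counts have no background and do not compare with the adjusted shares. The lowest members were Kif20a in ΔUNG (-0.58 ± 0.17, adjusted p = 0.222) and Ncapg in ΔUNG_2 (-0.57 ± 0.20, adjusted p = 0.302), and the highest were Spc25 in ΔUNG (0.14 ± 0.15) and Ncaph in ΔUNG_2 (0.07 ± 0.12). The SE of such a difference was 0.09 to 0.22 in ΔUNG and 0.10 to 0.25 in ΔUNG_2, and a deeper response was not detected for any single member. Of the other lists, 41 G1/S genes had median differences of -0.36 and -0.20, and the 73 further mitotic genes -0.20 and -0.12.

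**Figure D5:**
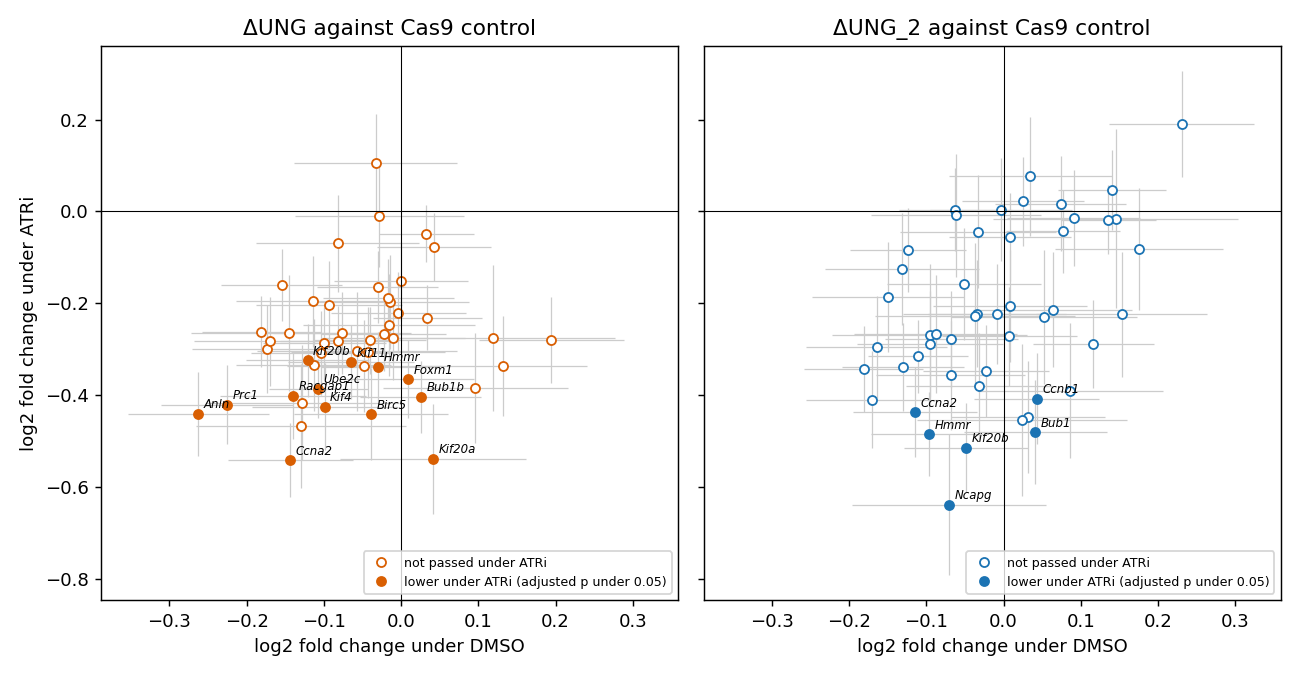
Log2 fold change of each clone against the Cas9 control for the 49 members, under DMSO (x axis) and under ATRi (y axis), with SE bars; filled points are members lower than the control under ATRi at an adjusted p under 0.05 (13 in ΔUNG, 6 in ΔUNG_2). The points spread around 0 on the x axis and lie mostly below 0 on the y axis.

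Some members' values carry a limit of counting. Ccnb1, Ccnb2 and Kif4 have named pseudogenes (Ccnb1-ps, Ccnb2-ps and Kif4-ps), whose reads may be shared with them. Members that overlap another listed gene are Cdc20 (Elovl1), Ccna2 (Exosc9), Foxm1 (Tex52), Kif20a (Cdc23), Nusap1 (Oip5 and n-R5s204), Cdc25b (Spef1), Prc1 (Rccd1), Ncapg (Lcorl), Cdca8 (9930104L06Rik), Cdc25c (Gm3550), Kif4 (Pdzd11), Ndc80 (Gm23115) and Kif18a (Mettl15), and whether counting used strand is not given in the sources used here. Coordinates are as the table gives them; 14028 of the 14528 listed genes, 45 members among them, have the same start and end in GENCODE M21 on GRCm38.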

How the data were processed

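Bulk RNA-seq of 11 B16F10 libraries was analysed from the gene table of FPKM values that the authors deposited, with HISAT2 the tool named in the submitters' processing notes; no version of it, no counting tool, no annotation and no build is given in the sources used here. The deposited read table gave clean read counts per library and percent values (Q30 and GC) as the authors list them, and its 1 row of no sample here was not used.

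Genes were kept where the 11 libraries averaged 0.5 FPKM or more (11323 of 14528) and fitted on log2(FPKM + 0.5) with limma 3.58.1 in R 4.3.3 (1 mean per group, 6 groups, eBayes with an intensity trend, 5 residual degrees of freedom), tested two-sided in 10 comparisons with Benjamini-Hochberg adjustment over all genes tested and a threshold of 0.05. The log2 scale with a pseudocount understates changes of low genes. The script was tested on simulated data. Fragments were recovered as whole numbers from FPKM and gene length (100% of values within 0.01 of a whole number), and used for depth, for shares and for limma-voom as an alternative. Since the FPKM values are relative to each library's total, a change in total RNA per cell is not seen.

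Genes named in full are the 2 members of each role with the highest mean FPKM, the lowest and highest fold change of each comparison, members that failed an ATRi test or passed a test between lines (at most 10, though all 13 are listed for ΔUNG), Ung, Cdkn1a, and from the other lists the 3 highest and those that passed against their list's direction; other members are given by their fold changes. The members and the lists were chosen with earlier results of these data known. Promoters were searched for the motifs in Python 3.11.15 and figures drawn with matplotlib 3.10.9. The alternatives tried were the pseudocount, the filter, 2 scalings, no trend, the compared groups alone, the replicate block, limma-voom and leaving out each library.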

Additional observations from a re-analysis of the deposited data

How the results depend on the processing

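Across the alternatives, the drop of the members under ATRi kept its direction, and the counts stayed within 1.5 times. The counts of members lower under ATRi were 46 to 47 in the control, 48 in ΔUNG and 47 to 48 in ΔUNG_2 under a pseudocount of 0.1 or 1, no filter or a filter at 2 FPKM, 2 other scalings, no intensity trend, a fit of the compared groups alone, the replicate block and limma-voom, and leaving out 1 library gave 43 to 47, 48 and 46 to 47.

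The counts of members lower in the clones than in the control under ATRi depended on the setting. For ΔUNG, 13 became 8 with no filter, 6 with no intensity trend, 1 in a fit of the compared groups alone and 32 with limma-voom on recovered fragments, and 1 to 13 without 1 library. For ΔUNG_2, 6 became 3, 2, 0 and 16, and 0 to 8 without 1 library. In DMSO, limma-voom called 2 members in ΔUNG, Anln among them, and a fit of the compared groups alone called Cdc20 higher in ΔUNG_2, where limma called 0. A fit of the compared groups alone and leaving out a library use fewer samples; for the other settings the cause was not tested.

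With the replicate number as a replicate block, the ATRi counts were 46, 48 and 47, and the clone counts under ATRi 9 and 2; the other counts stayed at 0. The correlation of same-numbered differences between groups ran from -0.124 to 0.0436, so no shared pattern of same-numbered samples was seen. With a single difference per group, these values cannot settle whether same-numbered libraries were handled together. Crossing the numbers of the control ATRi pair, chosen after seeing the data, gave 14 for ΔUNG. Without the ΔUNG_2 ATRi library its comparisons under ATRi had no value.

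Among single genes, the direction turned without 1 library only where the main value was near 0 or not called: leaving out 1 library, Cdc20 in the control ran from -0.0288 to 0.00870, Cdkn1a in ΔUNG against control in DMSO from -0.162 to 0.0116, the difference in response of Spc25 in ΔUNG from -0.0169 to 0.294, and Ung under ATRi from -0.0480 to 0.147 in the control and -0.402 to 0.188 in ΔUNG, with its difference in response from -0.451 to 0.138 (log2).

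Counts over all genes moved by over 1.5 times in places: without 1 library, 3805 genes changed by ATRi in the control became 2197 to 3938, 987 and 928 differing from the control in DMSO 370 to 1099 and 289 to 986, and 695 and 567 differing under ATRi 225 to 747 and 272 to 739. A fit of the compared groups alone gave 385 for ΔUNG in DMSO and 273 and 153 under ATRi, and limma-voom gave 1320 and 1053 there and 73 and 63 for the differences in response, against 2 and 8. Over all alternatives those last counts ran from 0 to 73 and 0 to 63, and the count between the clones in DMSO, 5, from 0 to 9. With 5 residual degrees of freedom and 1 library in ΔUNG_2 under ATRi, whose spread is assumed to be that of the other groups, the number of libraries limits the precision; the part of depth was not tested.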
